A study of Mus musculus with 2 samples.

Results

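Immediate early genes are switched on within minutes of a stimulus, from transcription factors already present in the cell. The 10 genes described here are Fos, Fosb, Jun, Junb, Jund, Egr1, Ier2, Ier3, Atf3 and Klf6, taken by name from the 17891 genes of a single-cell table of mouse corneal epithelium, and none was chosen by its values. The levels were compared between dry eye and control in each deposited cell class, with the classes whose names carry an asterisk kept apart. The dry eye library pooled 6 right eyes from a group of 7 male C57BL/6J mice, aged 10 weeks, taken 9 days after both lacrimal glands of that side, inside and outside the orbit, had been removed. The control library pooled the 7 left eyes of those animals, so a control eye belonged to a mouse that had been operated on the other side. No transgene or allele was named. Each condition was thus 1 library, and no value below has a biological replicate.

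Fos and Fosb proteins pair with Jun, Junb or Jund proteins to form the transcription factor AP-1, which binds a short palindromic DNA motif. Jun can also pair with proteins of the ATF group, of which Atf3 is a stress-induced member, and Egr1 is a zinc finger factor induced through the serum response factor. In epithelia these genes are known for their response to growth factors, wounding, osmotic change and the handling of tissue, and AP-1 is a known regulator of keratinocyte differentiation genes.

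Promoters of 8 of the genes were taken by symbol from RefSeq's table for GRCm38.p6, and the last 120 bases before the transcript start are shown for 5 of them. Egr1 and Ier2 are not among the 8, so their promoters were not searched. Fosb and Ier3 are shown because each was past 1.5-fold in 3 classes, Fos and Jun because theirs differed little over all cells, and Atf3 because a handful of cells held most of its control counts. The Fosb stretch lies at chr7:19310046-19310165 on the minus strand, that of Ier3 at chr17:35821593-35821712 on the plus strand, that of Fos at chr12:85473770-85473889 on the plus strand, that of Jun at chr4:95052223-95052342 on the minus strand and that of Atf3 at chr1:191183334-191183453 on the minus strand. Capitals mark matches to TGACG, TGACATCA or TATAAA.
Fosb: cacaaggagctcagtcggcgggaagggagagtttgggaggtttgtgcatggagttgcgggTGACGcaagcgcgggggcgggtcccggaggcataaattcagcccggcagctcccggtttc
Ier3: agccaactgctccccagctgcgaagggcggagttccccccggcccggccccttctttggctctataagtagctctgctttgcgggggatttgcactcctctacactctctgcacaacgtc
Fos: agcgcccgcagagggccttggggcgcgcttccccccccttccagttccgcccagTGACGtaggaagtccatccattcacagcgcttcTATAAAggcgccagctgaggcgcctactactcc
Jun: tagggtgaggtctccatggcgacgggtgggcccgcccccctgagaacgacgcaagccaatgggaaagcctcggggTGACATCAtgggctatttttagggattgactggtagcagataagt
Atf3: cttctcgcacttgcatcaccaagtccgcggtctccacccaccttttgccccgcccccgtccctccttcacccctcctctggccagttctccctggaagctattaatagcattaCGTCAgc
The 250 bases before each start were searched for the short site TGACG, for TGACGTCA, TGACATCA and TGACTCA and for the CArG box on both strands, and for TATAAA on the gene's strand, where TGACGTCA also contains the short site. The short site was found in 4 of the 8 promoters (Fos, Fosb, Junb and Atf3), against 17.8% of all 32851 promoters in the table. TGACATCA was found in Jun and Klf6, against 2.93% of all promoters, and TATAAA in Fos, against 7.59%. TGACGTCA (1.55% of all promoters), TGACTCA (4.46%) and the CArG box, the serum response factor's motif (1.47%), had no match in these windows of the 8. In the GENCODE annotation of the same build, Fosb spans chr7:19302696-19310051, Ier3 chr17:35821684-35822923, Fos chr12:85473890-85477273, Jun chr4:95049034-95052222 and Atf3 chr1:191170296-191218039. The libraries read the 3' ends of transcripts, so the counts are not tied to these starts.

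The dry eye library held 16420 cells with a median of 9086.5 unique molecular identifiers (UMIs) per cell, and the control library 17465 cells with a median of 8248. Levels are CPM, the UMIs of a gene scaled to the same total in each class or library. A median of 1.74% of a cell's UMIs were mitochondrial in dry eye and 1.76% in control. The limbal marker list was at 15927 CPM in dry eye LSC and 14561 in control LSC. It was as high in Conj, at 15979 in dry eye and 16054 in control, so the list did not set LSC apart from Conj. S phase markers summed to 913 CPM in dry eye TAC1 and 869 in control TAC1, and mitotic markers to 2112 in dry eye TAC2 and 2218 in control TAC2. Conjunctival markers were at 11990 CPM in the class Conj in dry eye and 9645 in control, superficial markers at 23608 and 29524 in Squam, and no marker list had been drawn up for Basal. Immune markers summed to 67.4 CPM of all cells in dry eye and 64.3 in control. Of the stromal keratocyte list 2 of 8 genes were in the table, with 65 UMIs in dry eye and 20 in control. The libraries shared 74 barcodes, which make 0.437% of all cells.

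Over all cells, Ier3 was the 1 of the 8 genes with enough counts that differed by 1.5-fold or more, and it was higher in dry eye. The count needed was 100 UMIs in the 2 libraries together, and the level needed was 20 CPM in either. Fosb and Atf3 were under the level minimum. By the same rule 2.81% of 4775 genes were at least 1.5-fold higher in dry eye and 1.4% at least 1.5-fold lower. The median log2 ratio of dry eye over control was -0.01 over the 8 genes and -0.05 over all 4775. Below, each ratio is of the CPM in dry eye over control, and its exact 95% interval reflects counting error alone.

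In the 8 classes with 100 or more cells from each condition, 6 pairs of a gene and a class were at least 1.5-fold higher in dry eye and 1 was lower, of 68 pairs with enough counts out of 80. Among all genes, 3.35% of 37928 such pairs were higher and 3.94% lower. The higher pairs were Fosb in Basal, TAC1 and TAC2 and Ier3 in Wing, TAC1* and TAC2, and the lower pair was Egr1 in LSC. The called Fosb pairs reached 20 CPM in dry eye alone, so they passed the minimum through the library where they were high. Fosb in Conj, lower in dry eye at a ratio of 0.552, was under that minimum and not counted. Only 0.803% of genes were that much higher in TAC1, 1.41% in TAC2, 0.602% in Basal and 2.25% in Wing, against 13.9% in TAC1*, which had 473 cells in dry eye and 133 in control. In TAC1 0.401% of genes were that much lower, in TAC2 1.04%, in Basal 0.473%, in Wing 1.14% and in TAC1* 14.6%. In LSC 2.73% of genes were that much higher and 7.07% lower. In Squam, where 3.17% of genes were higher and 5.53% lower, and in Conj, where 0.707% were higher and 0.11% lower, 0 of 8 passing members were called in either direction. Scaling by trimmed means multiplied the ratios by 1.14 in Squam and 1.10 in Wing, and by 0.970 to 1.05 in the other classes and over all cells. With that scaling Ier3 and Jun in Squam also passed 1.5-fold, at 1.65 and 1.61.

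**Figure D1:**
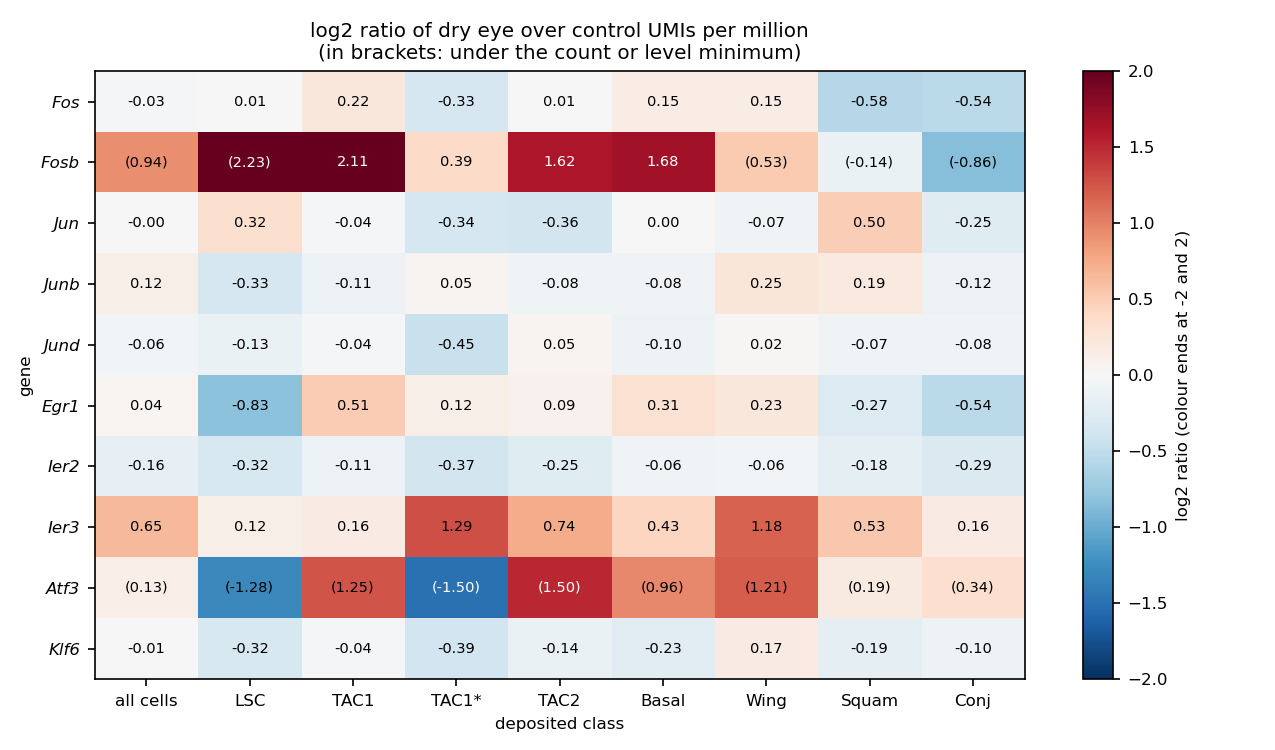
Each cell gives the log2 ratio of dry eye over control CPM for 1 gene (down) in all cells or 1 deposited class (across). Red is higher in dry eye, blue lower, and brackets mark pairs under the count or level minimum. The bracketed Fosb and Atf3 values all lay under the level minimum of 20 CPM. Those of Fosb rest on 3027 and 1463 UMIs over all cells, but on 40 and 3 in LSC. Fosb reaches 2.11 in TAC1, 1.68 in Basal and 1.62 in TAC2, and Ier3 1.18 in Wing.

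Fos, the founding partner of Jun in AP-1, had 121 CPM over all dry eye cells and 124 over all control cells, a ratio of 0.976 (0.959 to 0.994). That near-equality joined higher values in some classes with lower values in others. In Squam, the class with the most superficial markers, Fos stood at 68.4 in dry eye and 102 in control, a ratio of 0.671 (0.637 to 0.707). In Conj the values were 57.3 in dry eye and 83.3 in control, a ratio of 0.688 (0.641 to 0.738). In both classes the intervals of the 2 levels lay apart. Wing cells had 146 CPM in dry eye and 132 in control, and Basal cells 169 and 152, each a ratio of 1.11. TAC2 cells had 137 in dry eye and 136 in control, within counting error. The lowest class was LSC in both libraries, with 38.2 in dry eye and 37.9 in control. After each cell was thinned to 3000 UMIs, Fos was seen in 15.2% of dry eye Squam cells and 21.3% of control Squam cells, and before thinning in 37.9% and 47.8%, at median depths of 9518 and 9342.5 UMIs. The lower Fos in Squam remained apart after the highest level that free RNA could give, taken from LSC, was subtracted. That in Conj did not, and in cells thinned to 3000 UMIs the Conj ratio was 0.829.

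**Figure D2:**
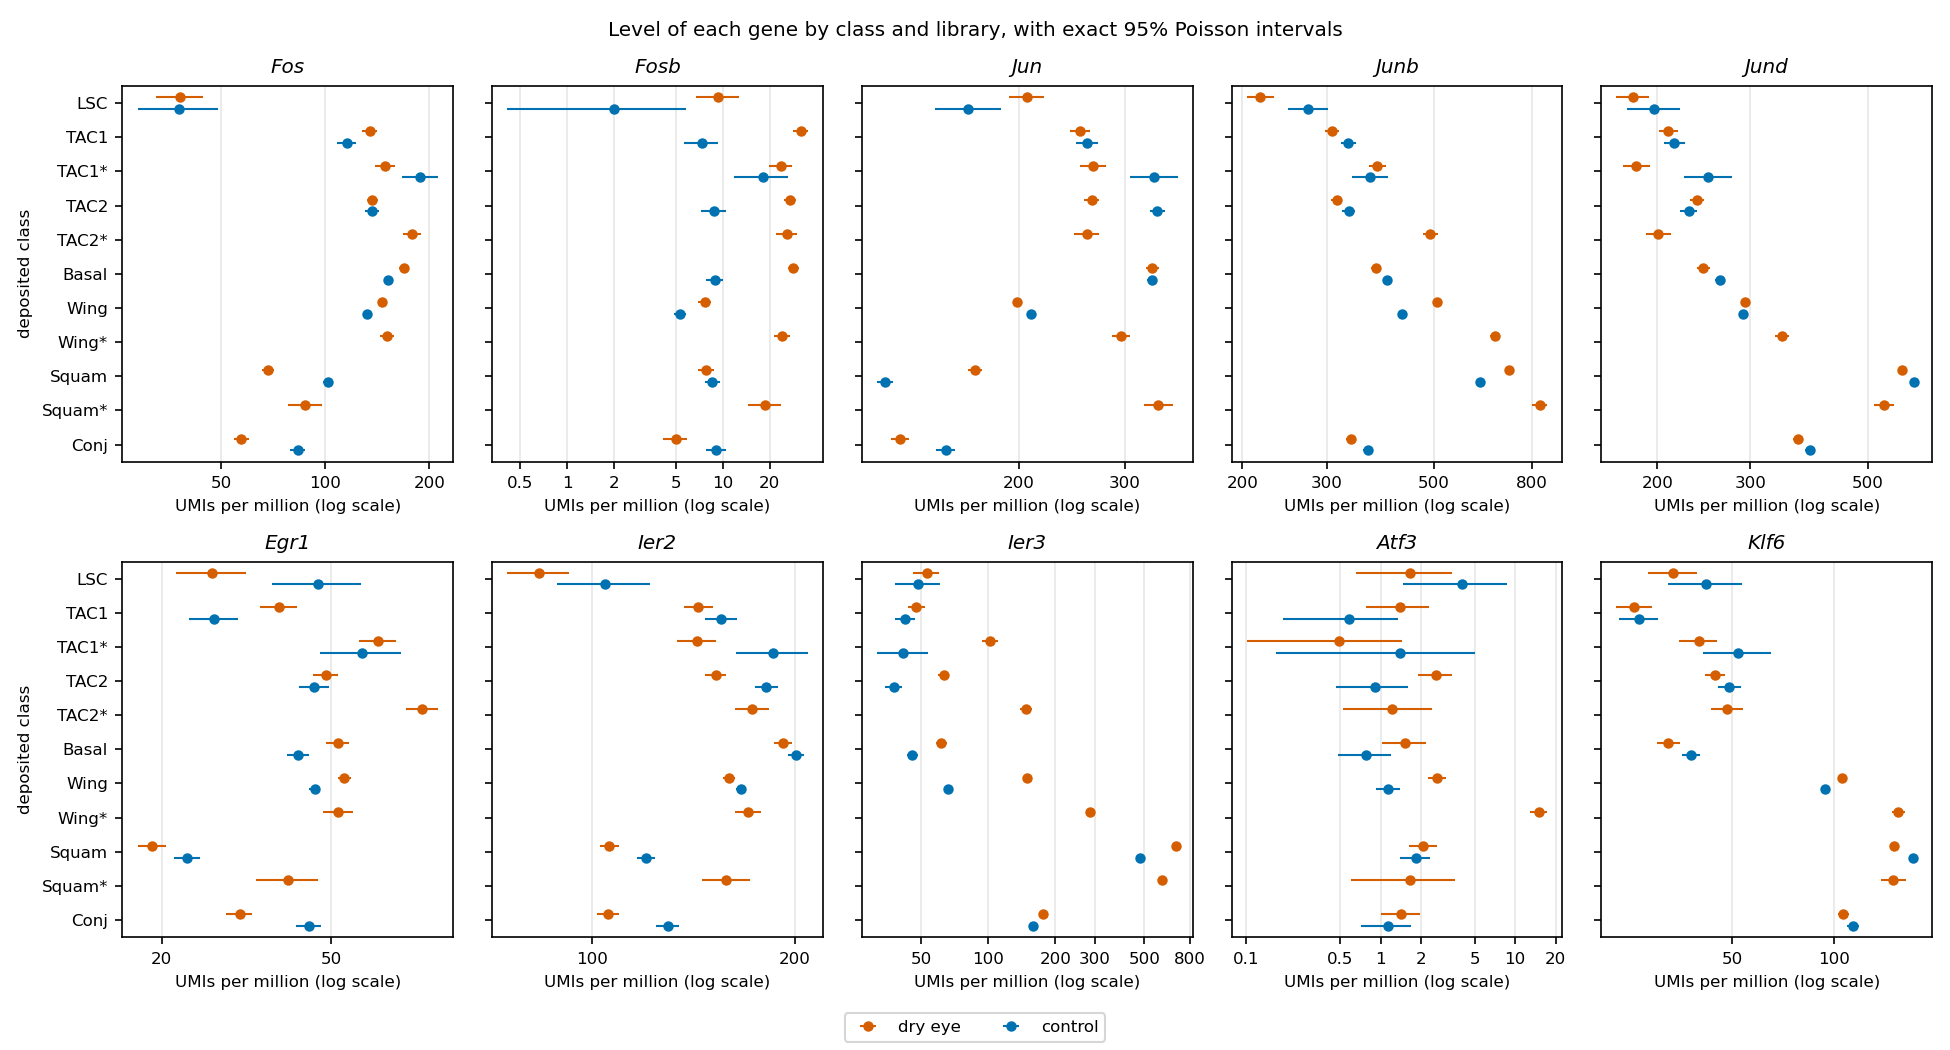
Each panel gives 1 gene, with CPM on a log axis that differs between panels, the deposited classes down the page, dry eye in orange above control in blue, and exact 95% Poisson intervals. Classes with at least 100 cells in a library are drawn, so TAC2*, Wing* and Squam* have dry eye points alone. Fosb lies to the right of control in TAC1, TAC2 and Basal, and Ier3 in TAC1*, TAC2, Basal, Wing and Squam.

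Fosb, a second Fos protein known for a splice form that accumulates with repeated stimulation in the brain, was higher in dry eye in the proliferating and basal classes. TAC1 cells had 31.7 CPM in dry eye and 7.33 in control, from 342 and 63 UMIs. Basal cells had 28.4 in dry eye and 8.87 in control, from 562 and 239 UMIs. TAC2 cells had 27.0 in dry eye and 8.78 in control, from 514 and 116 UMIs. These 3 dry eye levels were the highest 3 of the gene among the 11 dry eye classes with 100 cells, and their intervals overlapped one another. The ratio was 4.32 (3.29 to 5.74) in TAC1, 3.21 (2.75 to 3.75) in Basal and 3.08 (2.51 to 3.80) in TAC2. The summed limbal markers, 1 of which (Krt14) is also on the AP-1 target list below and 0 of which were at 0, were also higher in dry eye in these classes, at 1578 CPM in dry eye TAC1 and 604 in control TAC1, 1529 in dry eye Basal and 654 in control Basal, and 3400 in dry eye TAC2 and 1310 in control TAC2. Over all cells the limbal sum was 6321 CPM in dry eye and 4540 in control, and Krt14 alone 1940 and 183. The summed rise need not be shared by the other limbal markers. The part of these markers in the Fosb differences was not tested. Each of the 3 differences remained after the free RNA limit was subtracted, and the ratio without the 10 cells of each library richest in Fosb was 5.39 in TAC1, 3.44 in Basal and 3.71 in TAC2.

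The other classes differed among themselves in Fosb. Wing cells had 7.65 CPM in dry eye and 5.31 in control, a ratio of 1.44 (1.26 to 1.64). Squam cells had 7.80 in dry eye and 8.58 in control, with overlapping intervals. Conj cells had 4.98 in dry eye and 9.02 in control, a ratio of 0.552 (0.437 to 0.695) from 129 and 184 UMIs. In Conj 10 cells held 47.8% of the control UMIs, 1 of them 51, and without the 10 richest cells of each library the ratio was 0.742. LSC had 40 UMIs in dry eye and 3 in control, a ratio of 4.69 with an interval of 1.495 to 23.7. TAC1* had 23.6 CPM in dry eye and 18.0 in control, a ratio of 1.31 (0.856 to 2.07). In the 26 control UMIs of TAC1* a few cells weighed heavily, since 10 cells held 76.9% of them, and without the richest cells the ratio was 3.82. Over all cells Fosb had 14.6 CPM in dry eye and 7.64 in control, a ratio of 1.91 (1.80 to 2.04).

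The share of cells with Fosb differed too. In Basal, 7.44% of dry eye cells and 2.31% of control cells had a Fosb UMI after thinning, and 13.2% and 4.49% before it, at median depths of 6126 and 5695 UMIs. In TAC1 the thinned shares were 7.63% in dry eye and 2.11% in control, and in TAC2 7.04% and 2.07%. The Conj class, with the lowest thinned shares of the 6 largest classes but for control Wing at 1.22%, had 1.06% in dry eye and 1.38% in control, at median depths of 10457 and 10094 UMIs. The Basal, TAC1 and TAC2 cells of the dry eye thus stood above the Conj share.

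Fos itself did not differ by as much in the same cells, so the share with Fosb was also set against each cell's thinned Fos count. Among Basal cells with no Fos UMI, 4.48% of 1742 dry eye cells and 1.34% of 2687 control cells had Fosb. Among those with 1 Fos UMI the shares were 12.4% in dry eye and 4.43% in control, and with 2 to 3 Fos UMIs 13.3% and 5.65%. The intervals of the 2 libraries lay apart at each of these 3 Fos counts. In TAC1 and TAC2 together the shares were 5.79% in dry eye and 0.986% in control with no Fos UMI, 9.44% and 4.16% with 1, and 14.6% and 7.24% with 2 to 3, where the intervals overlapped. In Conj they were 0.760% in dry eye and 1.21% in control with no Fos UMI, with overlapping intervals. With 4 or more Fos UMIs, Basal had 8 of 25 dry eye cells and 2 of 51 control cells with Fosb, shares of 32.0% and 3.92% on few cells. In Squam the dry eye shares were 2.03%, 4.02%, 2.47% and 0% over the 4 Fos counts, with no steady order. At a like Fos count Fosb was seen more often in dry eye Basal cells.

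**Figure D3:**
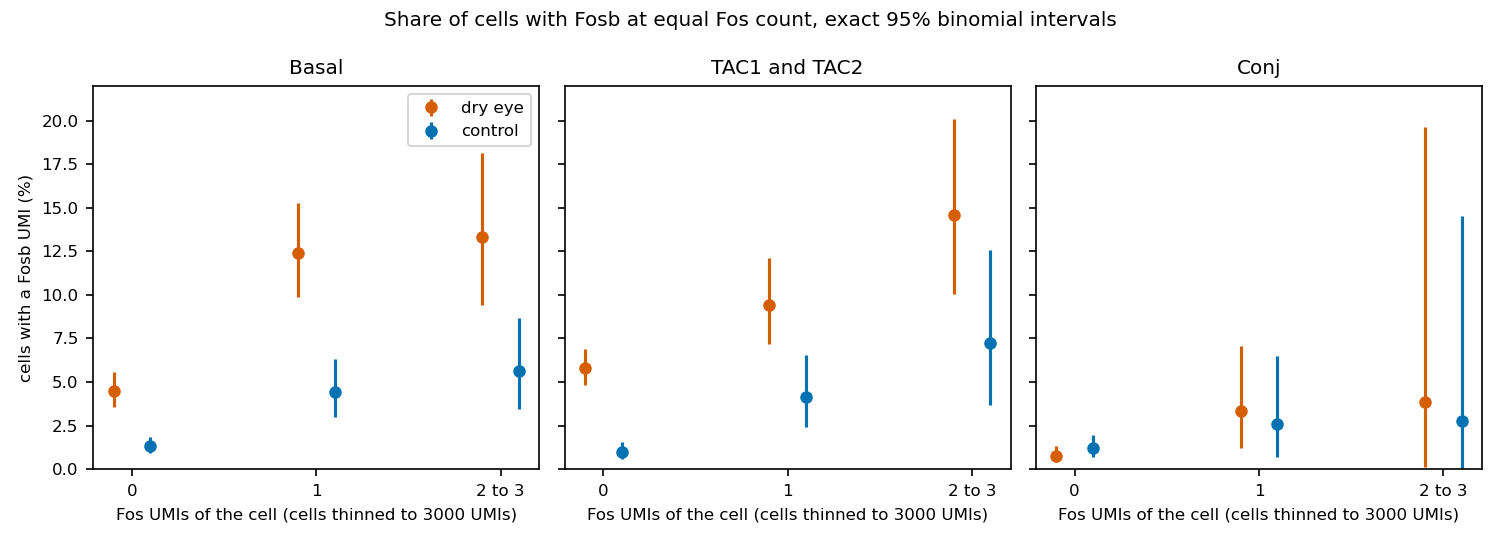
The share of cells with a Fosb UMI in percent is plotted against the Fos UMIs of the same cells, all thinned to 3000 UMIs, for Basal, for TAC1 and TAC2 together and for Conj, with dry eye in orange left of control in blue and exact 95% binomial intervals. Dry eye Basal cells lie at 4.48%, 12.4% and 13.3%, above control at 1.34%, 4.43% and 5.65%, while the Conj intervals overlap.

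Jun, Junb and Jund, the partners that each Fos protein needs, differed less. Jun had 219 CPM over all dry eye cells and 220 over all control cells, a ratio of 0.998 (0.985 to 1.01). In Squam it stood at 169 in dry eye and 120 in control, a ratio of 1.41 (1.35 to 1.47), and in TAC2 at 264 in dry eye and 340 in control, a ratio of 0.778 (0.747 to 0.810). The Squam difference of Jun did not lie beyond the free RNA limit, unlike that of Fos, which ran the other way. Basal cells had 333 Jun CPM in both libraries. In LSC, the class with a low Fos, Jun had 206 in dry eye and 165 in control, a ratio of 1.25 (1.08 to 1.44).

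Junb, which can oppose Jun at some targets, had 488 CPM over all dry eye cells and 448 over all control cells, a ratio of 1.09 (1.08 to 1.10). Its level was highest in Squam among the unstarred classes of both libraries, at 716 in dry eye and 626 in control, with a ratio of 1.14. Wing cells had 509 in dry eye and 429 in control, a ratio of 1.19 (1.17 to 1.20). LSC had 218 in dry eye and 274 in control, and these intervals lay apart, at a ratio of 0.795, but it did not lie beyond the free RNA limit and was 1.35 with LSC* merged into LSC. Jund, the Jun gene least dependent on stimulation, had 336 in all dry eye cells and 349 in all control cells, a ratio of 0.962. In the unstarred classes its ratios ran between 0.914 in LSC and 1.04 in TAC2, and in TAC1* it was 0.731 (0.649 to 0.826), at 183 in dry eye and 250 in control. Jund was also highest in Squam among the unstarred classes, at 582 in dry eye and 612 in control.

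Egr1, a zinc finger factor of wounding and growth factor signals, had 43.8 CPM over all dry eye cells and 42.7 over all control cells, a ratio of 1.03 (0.995 to 1.06). It was higher in dry eye in TAC1, with 37.7 in dry eye and 26.5 in control and a ratio of 1.42 (1.20 to 1.68). In Basal it stood at 51.7 in dry eye and 41.7 in control, a ratio of 1.24, and in Wing at 53.7 and 45.7, a ratio of 1.17. It was lower in dry eye in Conj, at 30.5 in dry eye and 44.2 in control, a ratio of 0.689 (0.625 to 0.759), where 1 control cell held 107 UMIs. In LSC it had 26.2 in dry eye and 46.6 in control, a ratio of 0.563 (0.414 to 0.771) from 112 and 70 UMIs. Of the control LSC counts, 64.3% came from 10 cells, and the ratio was 0.923 without the 10 richest cells of each library. The thinned share of LSC cells with Egr1 was 5.74% in dry eye and 7.57% in control. None of the Egr1 differences in these classes lay beyond the free RNA limit.

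Klf6, a zinc finger factor of the Krüppel-like family, had 95.1 CPM over all dry eye cells and 96.0 over all control cells, a ratio of 0.990 (0.970 to 1.01). It was highest in Squam among the unstarred classes, at 150 in dry eye and 172 in control, a ratio of 0.876 (0.844 to 0.909), which size factor scaling brings to 1.004. Wing cells had 106 in dry eye and 94.0 in control, a ratio of 1.13. Basal cells had 32.3 in dry eye and 37.8 in control, a ratio of 0.855 (0.773 to 0.945). Ier2, a nuclear protein named for its immediate early response, had 145 in all dry eye cells and 162 in all control cells, a ratio of 0.892 (0.878 to 0.907). Its ratios lay between 0.773 in TAC1* and 0.961 in Wing, below 1 in all 8 classes, but with trimmed mean scaling those of Wing and Squam were 1.05 and 1.005.

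Ier3, a small stress-induced protein that acts on cell survival and on kinase signalling, was higher in dry eye in the upper layers, TAC1* and TAC2. Wing cells had 150 CPM in dry eye and 66.0 in control, from 9403 and 5569 UMIs. Squam cells, the highest of the classes with at least 100 cells in both libraries, had 696 in dry eye and 481 in control. TAC1* cells had 102 in dry eye and 41.6 in control, from 624 and 60 UMIs. The intervals of the 2 levels lay apart in all 3 classes. The ratio was 2.27 (2.19 to 2.35) in Wing, 1.45 (1.42 to 1.48) in Squam and 2.45 (1.88 to 3.25) in TAC1*. Each of these 3 differences remained after the free RNA limit was subtracted. Limbal markers, Krt14 among them, summed to 7295 CPM in dry eye TAC1* and 930 in control TAC1*, where 1 of the 5 was at 0. Conjunctival markers summed to 2905 in dry eye Wing and 1646 in control Wing, with 0 of 5 at 0. The part of both marker lists in the Ier3 differences was not tested.

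Of the other classes, TAC2 had 63.4 CPM in dry eye and 37.8 in control, a ratio of 1.67 (1.51 to 1.86), and Basal 61.8 and 45.7, a ratio of 1.35 (1.25 to 1.46). Neither difference lay beyond the free RNA limit. TAC1 had 47.7 in dry eye and 42.6 in control, and LSC 52.9 and 48.6, both with overlapping intervals. In dry eye these were the lowest 2 of the 11 classes with 100 cells, and in control the lowest of 8 were TAC2 and TAC1*. Conj had 177 in dry eye and 158 in control, a ratio of 1.12 (1.07 to 1.17). After thinning, Ier3 was seen in 32.7% of dry eye Wing cells and 15.5% of control Wing cells, and before it in 65.6% and 44.2%, at median depths of 11815 and 10706 UMIs. In Squam the thinned shares were 75.4% in dry eye and 62.3% in control. The thinned shares in TAC1, where that of dry eye was lowest, were 12.5% in dry eye and 10.1% in control, at median depths of 8554 and 7656.5 UMIs.

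Over all cells Ier3 had 237 CPM in dry eye and 151 in control, a ratio of 1.57 (1.55 to 1.60). When class shares in dry eye were set equal to those in control, the ratio was 1.45 and no longer past 1.5-fold. Merging each starred class with its namesake gave ratios of 2.81 in LSC, 2.24 in TAC2, 2.16 in Wing and 1.59 in TAC1.

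Atf3, a stress-induced partner of the Jun proteins, was sparse, with 605 UMIs in the dry eye library and 513 in control. These made 2.92 and 2.68 CPM of all cells, a ratio of 1.09 (0.968 to 1.23). That value rested on 12 control cells of the class Wing*, which held 281 UMIs or 54.8% of the control library's Atf3. Without those 12 cells the ratio was 2.41, but this left the dry eye Wing* cells in, with 176 Atf3 UMIs. With the starred classes left out of both libraries the Atf3 ratio was 1.76, and with classes weighted to control shares 0.828. Atf3 was seen in 2.48% of dry eye cells and 0.876% of control cells, and after thinning in 0.729% and 0.293%. Within Wing it had 165 UMIs in dry eye and 96 in control, or 2.63 and 1.14 CPM, a ratio of 2.31 (1.79 to 3.00). In TAC2 it had 49 UMIs in dry eye and 12 in control, a ratio of 2.83 (1.49 to 5.85). Squam had 72 UMIs in dry eye and 63 in control, but 85.7% of the control UMIs came from 10 cells. No class reached 20 CPM of Atf3 in either library among the 8 compared, and merging Wing* with Wing gave a ratio of 1.03.

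The 12 control Wing* cells carried most of the genes at levels far above control Wing. Their Junb was 7565 CPM, against 429 in control Wing, and their Ier3 5964 against 66.0. Egr1 stood at 2541 against 45.7, Fosb at 423 against 5.31 and Atf3 at 1451 against 1.14. Over control Wing these were ratios of 17.6 for Junb, 90.3 for Ier3, 55.6 for Egr1, 79.7 for Fosb and 1275 for Atf3. Jun, Jund, Ier2 and Klf6 were 14.9, 10.0, 17.7 and 7.31 times control Wing, and Fos, seen in 7 of the 12 cells, 1.91 times. These ratios describe cells of 1 library and were not tested.

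In the dry eye library the class of the same name had 446 cells and lower levels. Dry eye Wing* stood at 670 CPM for Junb, 287 for Ier3, 52.0 for Egr1, 24.1 for Fosb and 14.9 for Atf3. The summed level of the 10 genes per cell had a median of 2153 and a maximum of 7641 CPM in dry eye Wing*, against 23991 and 75046 in control Wing*. Of the 12 control cells 10 lay over 10000, and of the 446 dry eye cells 0. Over all cells 1 dry eye cell and 27 control cells lay over 10000, and of the control cells 13 were in Squam, 10 in Wing*, 3 in Immune and 1 in Conj. The 12 cells had a median of 12064.5 UMIs, between 2740 and 32971, and a median mitochondrial share of 0.797%, against 10706 UMIs and 1.67% in control Wing. Their corneal markers summed to 4967 CPM against 42306 in control Wing, and their superficial markers to 16823 against 14671. Conjunctival markers summed to 4802 CPM against 1646. Immune markers summed to 139 CPM against 13.2, from 27 UMIs in the 12 cells, with 9 of the 11 genes in the table at 0, Ptprc and Cd74 among them. The heat shock genes Hspa1a and Hspa1b stood at 253 and 506 CPM, against 239 and 452 in control Wing. Cxcl2, a neutrophil chemokine, had 697 UMIs in 4 of the 12 cells, 49.8% of the control library's. It was looked at after its values were seen, and what set these cells apart was not tested.

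**Figure D4:**
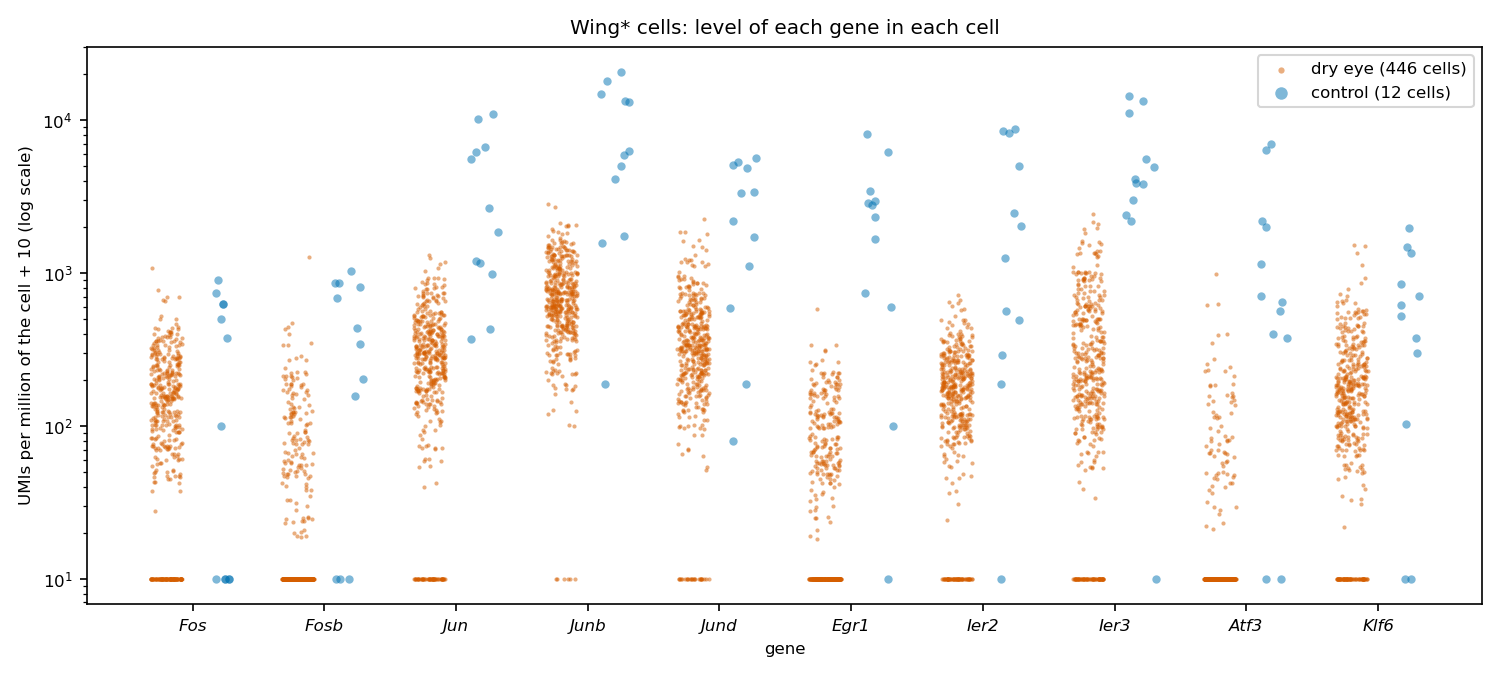
Each point is 1 Wing* cell, with dry eye (446 cells) in orange left of control (12 cells) in blue, and the level of each gene in CPM of that cell plus 10 on a log axis. Most control points lie above the dry eye cloud for Junb, Ier3, Egr1 and Ier2, while the 10 genes of the dry eye cells sum to at most 7641 CPM in a cell.

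Within the dry eye library the starred classes could be set beside their namesakes, as a description, since classes had been drawn from the same cells. Ier3 was at least 1.5-fold higher in 4 of the 5 starred classes. It stood at 343 CPM in LSC* against 52.9 in LSC, at 102 in TAC1* against 47.7 in TAC1, at 148 in TAC2* against 63.4 in TAC2 and at 287 in Wing* against 150 in Wing. In Squam* it was 602 against 696 in Squam, the other way. Egr1 was higher in LSC*, TAC1*, TAC2* and Squam*, by ratios of 2.47, 1.71, 1.69 and 2.08, and in Wing* it had 52.0 against 53.7 in Wing.

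LSC* differed from LSC in the most genes of the 10, with 7 of 8 passing members higher and 0 lower, while 24.2% of all genes were higher and 29.6% lower between these classes. LSC* had 85 cells at a median of 16145 UMIs, and LSC 592 cells at a median of 5478.5. Beside Ier3 at a ratio of 6.48, Fos had 153 in LSC* against 38.2 in LSC, Junb 811 against 218 and Klf6 124 against 33.5. In TAC1* 3 of 9 passing members were higher, in TAC2* 3 of 9, in Wing* 2 of 9 and in Squam* 2 of 8, with 0 lower in each. Of all genes 10.3% were higher and 6.7% lower in TAC1*, 8.3% and 14.2% in TAC2*, 10.2% and 9.59% in Wing* and 24.9% and 9.54% in Squam*. Fosb had 24.1 in Wing* against 7.65 in Wing, a ratio of 3.15, but 23.6 in TAC1* against 31.7 in TAC1, a ratio of 0.744. Jun had 341 in Squam* against 169 in Squam, a ratio of 2.02. The depths of these cells moved with the names, and the part of depth in the ratios was not tested.

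**Figure D5:**
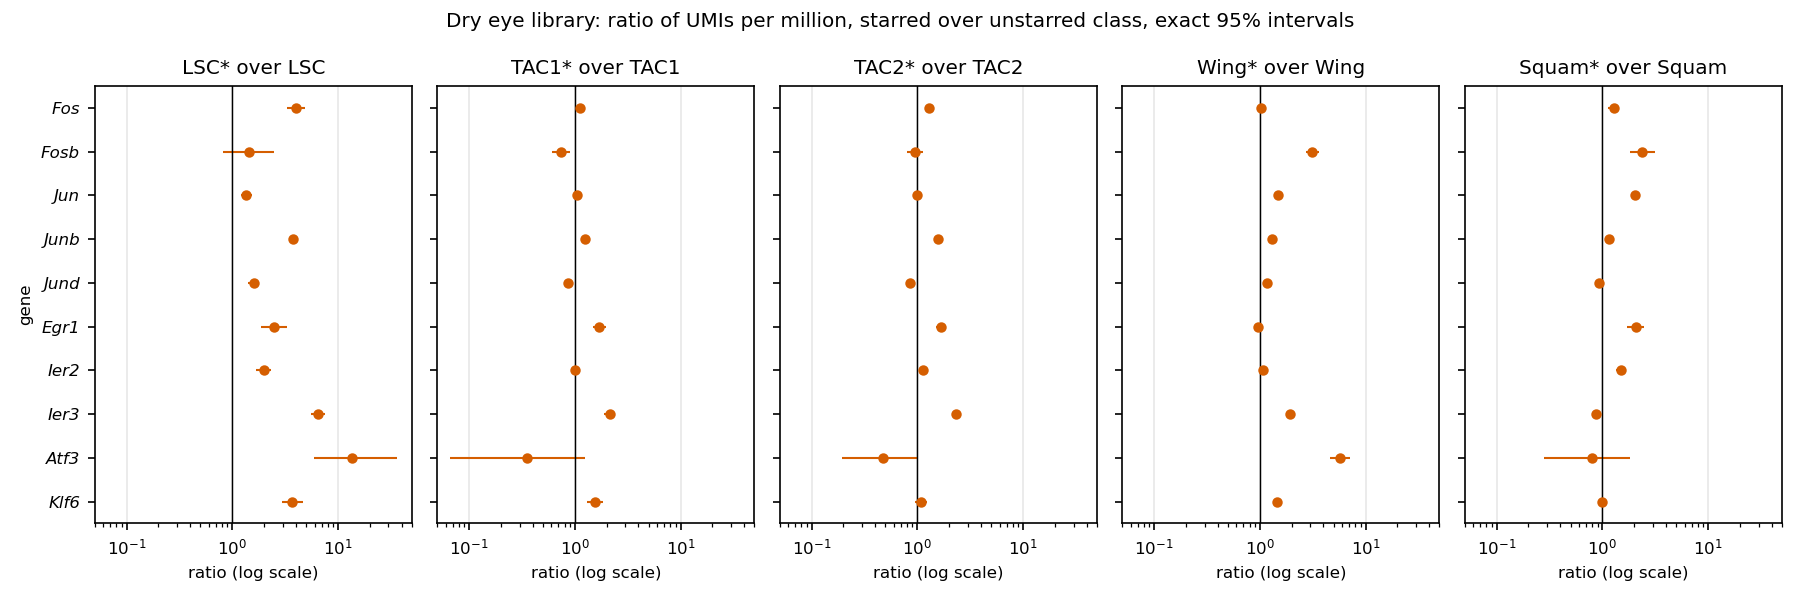
Points give the ratio of CPM in each starred class over its namesake within the dry eye library, on a log axis, with exact 95% intervals, for the 10 genes down the page. Ier3 lies right of 1 in LSC*, TAC1*, TAC2* and Wing* and left of it in Squam*, and the wide Atf3 intervals reflect its few counts.

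The genes around these 10 in the pathway were read from lists, by the all-cell rule with its background of 2.81% higher and 1.4% lower. Of the 9 other AP-1 family genes that passed, 1 was higher: Maff, a small partner without an activation domain, with 22.2 CPM in dry eye and 13.4 in control. Maff reached 20 CPM in dry eye alone, so it was counted through the library where it was high. Fosl2, another Fos relative, had 120 in dry eye and 141 in control, a ratio of 0.850. Fosl1, a Fos relative of migrating epithelium, lay under the level minimum with 256 UMIs in dry eye and 64 in control, a ratio of 3.70 (2.80 to 4.95), and in Wing 45 and 4 UMIs. Creb5 and Maf were also sparse, with 304 and 312 UMIs in dry eye and 44 and 77 in control. The list's median log2 ratio was -0.05, equal to that of all genes to this precision.

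Of 27 other immediate early genes that passed, 4 were higher and 1 lower, with a median log2 ratio of 0.09. The higher ones were Maff again, Hbegf (an EGF receptor ligand), Cebpb (a transcription factor) and Id3 (an inhibitor of helix-loop-helix factors), and the lower one Ccn1 (a matrix-bound protein). Hbegf had 244 CPM in dry eye and 147 in control, a ratio of 1.66, and Ccn1 19.7 and 29.8, a ratio of 0.661. Maff and Id3 reached 20 CPM in dry eye alone and Ccn1 in control alone. Each was thus counted through the library where it was high. Socs3, a feedback inhibitor of cytokine signalling under the level minimum, had 1698 UMIs in dry eye and 192 in control. Zfp36, which destabilises messenger RNAs of immediate early genes, had a ratio of 0.888 over all cells. Its ratio was 0.587 in TAC2 and 0.699 in TAC1, with 44.9 and 48.1 CPM in dry eye and 76.5 and 68.9 in control. That in TAC1 was not past 1.5-fold. In TAC1*, where Fosb was not called, the Zfp36 ratio was 0.570, and in Basal, where Fosb was called, 0.794. It was 0.725 in LSC, 0.903 in Conj, 0.968 in Wing and 0.999 in Squam. Zfp36 was added after values were seen, and any part of it in the levels of other genes was not tested.

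Of the kinases and phosphatases of the pathway few differed over all cells. Among 11 MAP kinase genes that passed and 8 of their phosphatases and feedback inhibitors, 0 were called in either direction, and their median log2 ratios were 0.01 and -0.02. Dusp1, a phosphatase that shuts off MAP kinases, had 33.7 CPM in dry eye Wing cells and 16.2 in control Wing cells, a ratio of 2.09 (1.95 to 2.23). In TAC1 the Dusp1 ratio was 1.65, and over all cells 1.25. Dusp10, under the level minimum, had 913 UMIs in dry eye and 283 in control, a ratio of 2.98 (2.61 to 3.42). Within classes, the phosphatase and feedback list had 2 of 8 higher in Wing (2.25% of all genes) and 1 of 6 in TAC1 (0.803%). Dusp1 is in both counts, and in both classes it reached 20 CPM in dry eye alone, the library where it was high. In Squam 1 of 6 was lower (5.53%), and in TAC1* 1 of 8 was higher and 2 lower (13.9% and 14.6%). Of the serum response factor list 2 genes passed and 0 were called, and Srf had 910 UMIs in dry eye and 639 in control, a ratio of 1.32.

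Of keratinocyte genes known as AP-1 targets, 11 of the 14 that passed were higher and 0 lower, with a median log2 ratio of 1.56, on a list drawn up with earlier results of these data known. The 11 are the keratins Krt6a, Krt14, Krt16 and Krt17, the envelope genes Sprr1a, Sprr1b and Tgm1, the calgranulins S100a8 and S100a9 and the ligands Areg and Hbegf. Of these, Krt17, Sprr1a, Sprr1b, Tgm1, S100a8, S100a9 and Areg reached 20 CPM in dry eye alone. They were thus counted through the library where they were high, which raises the count and the median. The lowest ratios of the list, 0.866 for Ereg and 0.800 for Krt1, were under the level minimum and not counted. Krt16 had 1150 CPM in dry eye and 34.3 in control, and Krt17 91.0 and 19.9. Sprr1b had 21329 UMIs in dry eye and 0 in control. These genes answer to other factors too, and any link to the 10 genes was not tested. Of 14 heat shock genes that passed, 0 were higher and 1 lower, Cryab, with 226 CPM in dry eye and 343 in control, and the list's median log2 ratio was 0.17. Hspa8 had 267 in dry eye and 180 in control, a ratio of 1.48, and Dnaja1 106 and 74.8, a ratio of 1.42. In TAC1* 4 of 15 were higher and 3 lower, with a median log2 ratio of 0.42. Hspa1b had ratios between 0.502 in TAC1* and 1.03 in TAC2, with 1.02 in Wing. Hspa1a, an inducible chaperone, had 128 in dry eye and 182 in control and a ratio below 1 in all 8 classes, between 0.490 in TAC1* and 0.967 in LSC, where the trimmed mean factor of 1.04 takes it just above 1.

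Likeness was measured in 2 ways and is given as a description. Over the 19 points of a class in a library with at least 100 cells, the genes whose log2 level ran most like the mean of the 10 included Samd4b, Akirin1, Plekhf2, Btg2 and Gosr2, with Pearson r between 0.91 for Samd4b and 0.85 for Gosr2 among 4571 genes. Across single cells within a class and library, Zfp36 was most like the mean of the 10, at an average r of 0.33, followed by Dusp1 at 0.28 and Btg2 at 0.27. The closest pair among the 10 was Fos and Jun, at an average r of 0.288 over the 19 points, and 0.160 in cells thinned to 3000 UMIs. The points share libraries and depth, and correlations this weak in sparse counts were not taken as a finding.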

How the data were processed

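Each of the 2 samples was 1 pooled library of dissociated corneal epithelium, made with the 10x Genomics 3' v3.1 kit per the labels. The authors deposited raw UMI counts of 17891 genes in 33885 cells, with a library and 1 of 13 class names for each cell. Per the submitters' processing notes, the tools were Cell Ranger 6.0.1 and Seurat 4, with genome mm10. How cells and genes were filtered and classed, and what the asterisk means, are not given in these sources, and no doublet caller was run.

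The deposited counts were summed per class and library and divided by the total, giving CPM. Comparison of a gene needed 20 CPM in either library and 50 UMIs in the 2 together within a class, or 100 UMIs over all cells. Ratios have exact Clopper-Pearson intervals and levels exact Poisson intervals at 95%. All cover counting error only, and with 1 library per condition no p-value was computed. Shares of cells were also computed after each cell was thinned to 3000 UMIs, which left out 784 dry eye cells and 1094 control cells. For each difference, free RNA was bounded by subtracting, in the higher library, the 95% upper limit of the gene's mean UMIs per cell in its lowest class. In the alternative setting with free RNA subtracted, each library had its own limit subtracted, and remainders under 3 UMIs were set to 3. Pairs with at most 3 left in both libraries were dropped there. On counts simulated as independent Poisson draws over all cells, 95.4% of intervals held the true ratio for 4361 unchanged genes. The intervals assume such counts, so this checks the calculation alone. It covers neither the spread between cells nor the classes.

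All 10 genes are named in each comparison, and of each pathway list the 2 highest and 2 lowest ratios were considered. Genes called by the 1.5-fold rule and Cxcl2, Dusp1, Zfp36 and Fosl1 were added after values were seen. Of the genes most like the 10 in level, 1 is not reported here. The genes and lists were chosen with earlier results of these data known. Work was done in Python 3.11.15 with scipy 1.17.1 and pandas 2.3.3. Scaling alternatives used edgeR 4.0.16 (trimmed means) and DESeq2 1.42.0 (size factors) on the counts, for factors alone.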

Additional observations from a re-analysis of the deposited data

Results flagged for a closer look

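The Fosb ratio of dry eye over control was 4.32 in TAC1 and 0.552 in Conj, with intervals of 3.29 to 5.74 and 0.437 to 0.695. It was singled out because the 2 classes differed in opposite directions. With 1 library per condition the difference between the classes was not tested. In Conj 10 cells held 47.8% of the control UMIs.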

How the results depend on the processing

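The 1307 alternative ratios covered the 10 genes in each comparison and, over all cells, the 2 highest and 2 lowest genes of each pathway list. They came from 13 planned settings and 1 added after seeing the data, which leaves out the 12 control Wing* cells. Of these ratios 950 moved by less than their counting interval and 357 by more. Direction changed in 0 where the value was called, that is past 1.5-fold and over the count and level minimums. Atf3 in LSC, under the minimums, had a ratio of 0.411 and one of 1.63 with starred classes merged. Over all cells the number of genes at least 1.5-fold higher was 1, 2 with no filter on low counts and 0 with classes weighted to control shares. Within classes it was 6, and 11 with no filter, 9 without the 10 richest cells, with starred classes merged or with free RNA subtracted, 8 with either scaling, 7 as a mean over cells and 6 in the other settings. The number lower within classes was 1, and became 4 with no filter, 0 without the 10 richest cells, 3 with thinned cells, 0 with starred classes merged and 11 with free RNA subtracted. The median log2 ratio over all cells, -0.0085, was 0.058 with trimmed mean scaling, 0.0638 with size factors, 0.017 with no filter, 0.0177 without the 5% of cells with most UMIs, 0.0174 with thinned cells and 0.0275 as a mean over cells. Across cells, the median r of pairs was 0.094, and 0.0407 in thinned cells. No paired analysis was possible because each condition was 1 library, so no replicate could be left out either. Atf3 in every class compared and Fosb in LSC, Wing, Squam and Conj lay under the level minimum of 20 CPM. Fosb in LSC also lay under the count minimum, while in Wing it had 480 UMIs in dry eye and 448 in control.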
